A study of Homo sapiens with 6 samples.

Results

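MDA-MB-231 is a human triple-negative breast cancer cell line with a mesenchymal shape. In this study its cells were transduced with the empty lentiCRISPRv2 vector in 2 separate transductions, and 1 RNA library was made from each. They are called vector 1 and vector 2 and serve as the controls of a series on MRCK knockouts. The genes described here are those with at least 100 expected counts in both vector libraries whose FPKM (fragments per kilobase of transcript, scaled to library size) in vector 2 was at most 0.5 or at least 2 times that in vector 1. This rule left 9663 of 17064 genes for comparison and picked 130 of them, 80 lower in vector 2 and 50 higher. The 80 are 0.828% of the genes compared and the 50 are 0.517%.

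The 6 libraries of the series are vector 1, vector 2, 1 MRCKα knockout (KO), 1 MRCKβ KO and 2 double knockouts (DKO 1 and DKO 2), which received different guide sets against CDC42BPA and CDC42BPB, the genes of the actin-regulating kinases MRCKα and MRCKβ. All are pools of lentivirally transduced MDA-MB-231 cells kept under puromycin or blasticidin and collected while subconfluent, and no single clone was picked. Vector 1 held 10657857 expected counts and vector 2 held 10349898, the highest and the lowest totals of the 6. With 1 library on each side there is no replicate check, so a ratio has no test and no p-value, and the FPKM ratio itself chose the genes. A fold below is a ratio of FPKM. The interval beside it is the exact 95% interval (Clopper-Pearson) of the ratio of the rounded counts per library total, so it holds the error of counting and says nothing of transductions in general. Where 4 knockout values follow each other, they are in the order MRCKα KO, MRCKβ KO, DKO 1, DKO 2.

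Both libraries had the markers of the line. VIM was at 1545 FPKM in vector 1 and 2052 in vector 2, AXL at 271 and 367, and CD44 at 116 and 203, and all 12 defining genes passed the count minimum. None of the 9 genes in the table that are listed as low or absent in the line passed it: CDH1 was at 0.250 and 0.640 FPKM, and CDKN2A was listed at 0 in both vector libraries. Markers of HEK293T, the line in which the virus was made, summed to 25.1 and 22.7 FPKM. Of the 13 markers in the deposited data, 2 passed the count minimum. The highest value of any of these markers in any of the 6 libraries was 19.3 FPKM, while LIN28B, NEFM, GAL and UCHL1 were listed at 0 in both vector libraries. Fibroblast markers summed to 17.9 and 9.19 FPKM, endothelial markers to 4.23 and 2.29, and leukocyte markers to 79.2 and 110, of which CD68, a lysosomal protein, made up 68.6 and 98.5. CDC42BPA, which the empty vector does not target, was at 36.4 FPKM in vector 1 and 23.3 in vector 2, the lowest of the 6 libraries. Its count ratio was 0.629 (0.598 to 0.663). CDC42BPB was at 30.3 and 29.1, with a count ratio of 0.952 (0.895 to 1.01).

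Several of the groups below have well known controls. SREBP transcription factors switch on cholesterol and fatty acid synthesis when membranes lack sterol. NRF2, encoded by NFE2L2, is held for degradation by KEAP1 and switches on antioxidant enzymes and ferritin through antioxidant response elements in their control regions. Keratins and junction proteins such as plakoglobin belong to the epithelial state, of which MDA-MB-231 cells keep a part. In bulk RNA, fewer cells of a kind and less RNA per cell cannot be told apart.

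**Figure D1:**
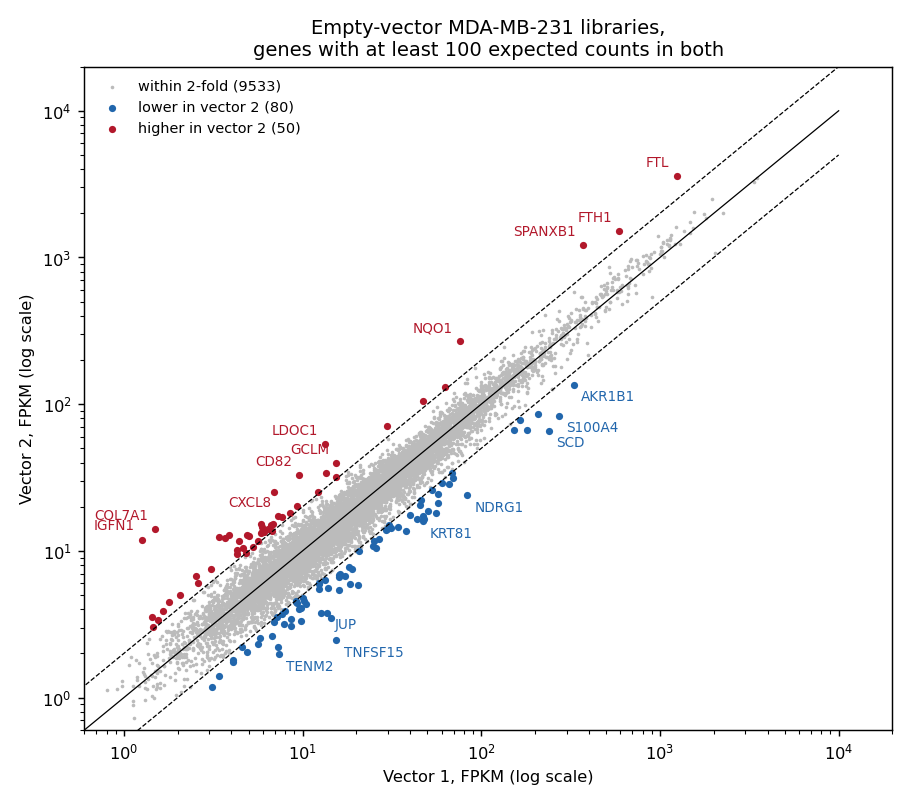
FPKM in vector 2 against FPKM in vector 1, both on log scales, for the 9663 genes with at least 100 expected counts in both. The solid line marks equal values and the dashed lines 2-fold; the 80 genes lower in vector 2 (blue) include SCD, S100A4 and AKR1B1 at high levels, and the 50 higher genes (red) include FTL, FTH1 and SPANXB1.

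The 80 genes lower in vector 2 were 2.01- to 6.31-fold apart with a median of 2.37. TNFSF15, a TNF family cytokine also called TL1A, was the farthest apart. It was at 15.5 FPKM in vector 1 and 2.45 in vector 2, and at 8.69, 16.6, 16.6 and 5.70 in the knockouts. Vector 2 was thus the lowest of the 6 and DKO 2 the next. The fold was 6.31 (5.35 to 7.42).

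Genes of lipid synthesis lay lower in vector 2. SCD, the desaturase that makes oleate, was at 239 FPKM in vector 1 and 65.8 in vector 2, and at 166, 232, 160 and 73.7 in the knockouts. Vector 2 and DKO 2 stood well below the other four libraries. SCD was 3.63-fold lower in vector 2 (3.50 to 3.77). SREBF1, which encodes SREBP-1, was at 29.5 and 14.1 FPKM, 2.10-fold apart (1.89 to 2.28), with 18.6, 29.3, 23.9 and 18.3 in the knockouts. These were the only genes of the cholesterol and fatty acid synthesis list past 2-fold, 2 of 32 compared. Yet 31 of the 32 were lower in vector 2, with a median log2 ratio of -0.62, where the median of all genes compared was -0.00 and 4865 of 9663 were lower. PMVK was the exception, at 9.46 FPKM in vector 1 and 15.3 in vector 2. HMGCS1, an early enzyme of the pathway, was at 24.8 and 13.1 FPKM, and FASN, the fatty acid synthase, at 59.2 and 34.4. SREBF2, which encodes SREBP-2, was at 48.0 and 28.2.

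The same list was lower in DKO 2 than in DKO 1 at 32 of 33 genes, with a median of -0.39, where 4566 of all 9760 genes were lower. Over the 32 genes compared in the vector pair, vector 2 was the lowest of the 6 libraries at 13 and DKO 2 at 18. Vector 1 was the highest at 18. Over all genes compared these shares were 24.7%, 15.7% and 15.2%.

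Of 15 epithelial genes compared, 5 lay 2-fold lower in vector 2, 12 lay lower by any amount, and the median log2 ratio was -0.60. JUP, plakoglobin of desmosomes and adherens junctions, was at 13.7 FPKM in vector 1 and 3.80 in vector 2, and at 6.23, 14.1, 8.64 and 4.44 in the knockouts. The fold was 3.61 (2.97 to 4.40). Vector 1 and MRCKβ KO were alike and high, and vector 2 and DKO 2 low. KRT19, a keratin of simple epithelia, was at 60.4 and 28.9 FPKM in the vector libraries, at 62.2, 57.5, 48.1 and 21.5 in the knockouts, lowest in DKO 2. KRT81 was at 47.1 and 15.9 FPKM and KRT80 at 25.7 and 10.5. The abundant pair KRT8 and KRT18, which form the main keratin filament of these cells, differed little: KRT8 was at 220 and 187 FPKM and KRT18 at 177 and 184. S100A4, a calcium-binding protein counted among mesenchymal markers, also lay lower, at 273 FPKM in vector 1 and 83.4 in vector 2, with 161, 284, 147 and 43.7 in the knockouts. It was 3.27-fold lower (2.94 to 3.67). The mesenchymal list, S100A4 included, had no shared direction: 9 of 17 lay lower, with a median of -0.02.

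Ligands and a secreted inhibitor of the TGF-β family were also among the 80. TGFB2, a TGF-β ligand, was at 50.3 FPKM in vector 1 and 18.7 in vector 2, and between 34.2 (DKO 2) and 52.9 (MRCKα KO) in the knockouts. It was 2.69-fold lower (2.51 to 2.88). FST, follistatin, which binds activins, was at 56.1 and 18.1 FPKM, 3.09-fold apart (2.92 to 3.62), and INHBB, an activin subunit, at 18.2 and 7.74. Of 31 genes of this list, 25 lay lower in vector 2, with a median of -0.27; in the DKO pair the median was 0.01. The receptors TGFBR1 and TGFBR2 were at 12.9 and 10.9 FPKM and at 28.1 and 30.2. SPRY1, which damps receptor tyrosine kinase signalling, was at 12.6 FPKM in vector 1 and 3.79 in vector 2, 3.33-fold apart (2.67 to 4.12). DUSP1, a phosphatase of MAP kinases induced early after stimulation, was at 47.6 and 16.5 FPKM, 2.89-fold apart (2.55 to 3.27), with 32.5 to 59.8 in the knockouts. Few genes of the lists that hold them were as far apart: of 18 ERK feedback genes SPRY1 alone was past 2-fold, with a median of -0.14 and a 95% interval of the median over genes from -0.27 to 0.07, and of 34 immediate early genes DUSP1 alone was, with 23 lower and 11 higher and a median of -0.25 (-0.40 to 0.05). In the DKO pair the immediate early list had a median of 0.09.

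Among matrix and adhesion genes, TIMP3, an inhibitor of metalloproteases held in the matrix, was at 181 FPKM in vector 1 and 67.0 in vector 2, with 102 to 173 in the knockouts. It was 2.70-fold lower (2.60 to 2.80). PLAT, tissue plasminogen activator, was at 31.3 and 14.3 FPKM, and lower still in DKO 2 at 12.8. PLAUR, the receptor of the urokinase plasminogen activator, went the other way, at 47.3 and 105 FPKM. ITGB4, the integrin of hemidesmosomes, sat at the edge of the rule, at 7.15 and 3.55 FPKM (2.01-fold), and its MRCKα KO and DKO values, 2.62, 2.94 and 2.20, lay below both vector libraries. CD9, a tetraspanin, was at 69.5 and 31.5 FPKM and TENM2, a teneurin cell adhesion protein, at 7.35 and 1.97. TENM2 was apart in another way, since DKO 2 was here the highest of the 6 at 13.6. Other abundant genes lower in vector 2 were AKR1B1, the aldose reductase, at 330 and 135 FPKM, SLC38A2, an amino acid transporter, at 152 and 66.5, ERRFI1, an inhibitor of EGFR, at 166 and 78.5, and NDRG1, a gene induced by hypoxia, at 83.4 and 23.9. NDRG1 was the only one of 33 genes of the hypoxia and glycolysis list past 2-fold, and was 3.49-fold lower (3.22 to 3.78). Its values ranged widely among the knockouts too, from 29.9 in DKO 2 to 111 in MRCKβ KO.

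Further members named for their ratio or level were on no list. SFTPB, a surfactant protein, was at 14.5 FPKM in vector 1 and 3.49 in vector 2, with 7.03 to 13.7 in the knockouts, 4.16-fold apart (3.36 to 5.22). SLC5A3, a transporter of myo-inositol, was at 20.4 and 5.83, with 11.8, 15.9, 12.3 and 7.14, 3.50-fold apart (3.22 to 3.81). Both were lowest in vector 2 and next lowest in DKO 2. SLC25A23, a mitochondrial carrier, was at 43.6 and 16.4, but here all knockouts lay close to vector 1, between 42.0 and 46.1. SLC44A2, a choline transporter-like protein, was at 66.1 and 28.5, with 53.1 to 70.7 in the knockouts, and was likewise low in vector 2 alone.

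The 50 genes higher in vector 2 were 2.00- to 9.41-fold apart, with a median of 2.39. They were led by COL7A1 and IGFN1. COL7A1, the collagen of anchoring fibrils, was at 1.5 FPKM in vector 1 and 14.1 in vector 2, and at 2.01, 2.19, 2.89 and 4.83 in the knockouts. The fold was 9.37 (7.93 to 11.2), and vector 2 stood clear of all the others. IGFN1, an immunoglobulin-like protein known from skeletal muscle, was at 1.27 and 11.9 FPKM, 9.41-fold apart (8.26 to 11.6), with 1.46 to 5.34 in the knockouts. LDOC1 was at 13.4 and 53.3, and CD82, a tetraspanin, at 9.59 and 33.0. The matrix list as a whole did not lean: 27 of its 47 genes lay higher, with a median of 0.08.

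Antioxidant and iron storage genes were among the 50. NQO1, a quinone reductase, was at 75.7 FPKM in vector 1 and 268 in vector 2, and at 54.8, 64.5, 57.1 and 77.1 in the knockouts. Vector 2 alone was high, and the other five libraries spanned less than a factor of 2. The fold was 3.54 (3.38 to 3.73). FTL, the ferritin light chain, was at 1241 and 3596 FPKM, and between 1132 and 1551 in the knockouts, 2.90-fold higher in vector 2 (2.84 to 2.96). FTH1, the ferritin heavy chain, was at 591 and 1509, with 641 to 833 in the knockouts. GCLM, the modifier subunit of the enzyme that starts glutathione synthesis, was at 15.5 and 39.5, with 14.4 to 19.1 in the knockouts. TRIM16, a ubiquitin ligase linked to the same response, was at 3.86 and 12.9 FPKM, but its near copy TRIM16L was also among the 50, at 6.90 and 25.2, and reads can be shared between them.

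Of 22 genes compared on the NRF2 and iron storage list, 5 passed 2-fold, 19 lay higher in vector 2, and the median log2 ratio was 0.48. TKT, of the pentose phosphate pathway, was at 134 and 247 FPKM, TXN, thioredoxin, at 332 and 586, and TXNRD1, its reductase, at 127 and 176. GCLC, the catalytic partner of GCLM, was at 9.34 and 8.31, and AKR1C1 at 7.83 and 6.60. Their count ratios were 0.899 (0.767 to 1.05) and 0.993 (0.767 to 1.29), so neither was clearly lower by counts. AKR1C1 was given a transcript length of 1476 bases in vector 1 and 1731 in vector 2. Vector 2 was the highest of the 6 libraries at 18 of the 22, against 20.9% of all genes compared. The same list had a median of 0.06 in DKO 2 against DKO 1. Of the regulators, which were singled out after their values were seen, NFE2L2 was at 35.2 FPKM in vector 1 and 32.9 in vector 2, a count ratio of 0.937 (0.858 to 1.02). KEAP1 was at 26.8 and 20.0, and at 27.4, 26.1, 29.4 and 33.0 in the knockouts. Vector 2 was the lowest of the 6, with a count ratio of 0.749 (0.669 to 0.838). Whether this difference has a part in the level of NRF2 targets was not tested.

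**Figure D2:**
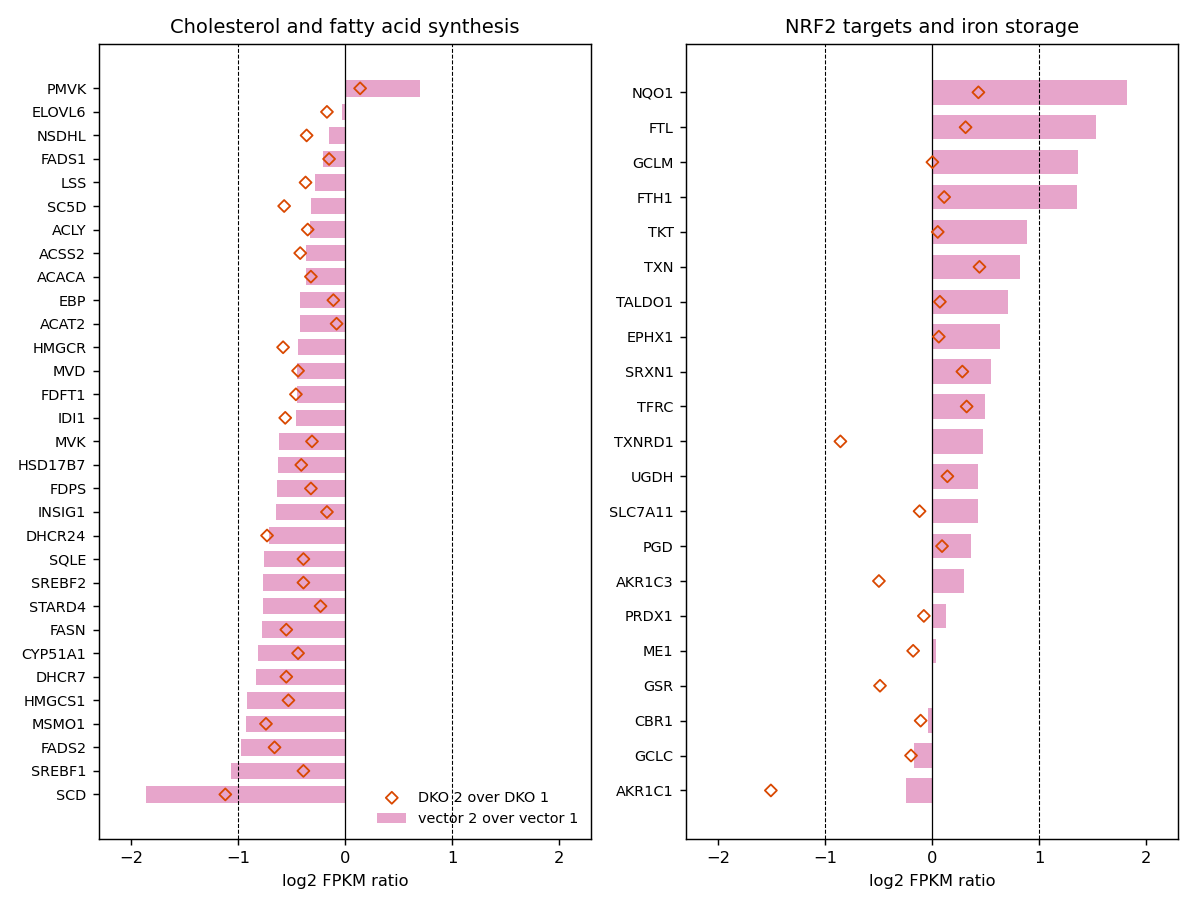
log2 FPKM ratio of genes on 2 lists: bars give vector 2 over vector 1 and open diamonds DKO 2 over DKO 1, with dashed lines at 2-fold. In the sterol and fatty acid panel the diamonds lie on the same side as the bars, and in the NRF2 panel NQO1, FTL, GCLM and FTH1 have bars past 2-fold and diamonds at 0.43 or less.

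The core letters of the antioxidant response element, TGACNNNGC on either strand, were looked for in the RefSeq promoters of GRCh38.p14, from 250 bases before to 50 after the annotated start. These letters overlap the AP-1 site TGACTCA and are common: 13.6% of 27305 promoters held them, and 15.4% of the 8072 promoters of genes compared. They stood in 11 of 42 promoters of genes higher in vector 2 (26.2%) and in 6 of 57 of genes lower (10.5%); the other members had no promoter in the table. On the NRF2 and iron storage list 5 of 17 held them: GCLM, TXNRD1, PGD, ME1 and CBR1. NQO1 and FTL had a promoter in the table and no match in this window. The core of the sterol element, TCACNCCAC, was in 1.15% of all promoters and in 1 of 25 on the lipid synthesis list, that of SREBF2. The stretches below run 5′ to 3′ on the gene's strand and end at or before the start site, with the matched letters in capitals. GCLM, CD82 and MAGEC2 are shown as members higher in vector 2, DUSP1 as a lower member with the same letters, and SREBF2 for the sterol core. A match is a description and not a site in use.
GCLM (chr1:93909431-93909494, minus strand): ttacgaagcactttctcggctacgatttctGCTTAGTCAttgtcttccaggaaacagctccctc
CD82 (chr11:44565614-44565662, plus strand): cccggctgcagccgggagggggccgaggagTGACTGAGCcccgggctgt
MAGEC2 (chrX:142205294-142205366, minus strand): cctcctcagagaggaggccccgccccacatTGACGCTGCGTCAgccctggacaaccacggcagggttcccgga
DUSP1 (chr5:172771272-172771340, minus strand): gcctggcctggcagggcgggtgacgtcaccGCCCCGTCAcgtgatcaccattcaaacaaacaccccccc
SREBF2 (chr22:41832942-41833010, plus strand): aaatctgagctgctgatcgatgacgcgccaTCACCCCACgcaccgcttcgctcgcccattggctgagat

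Inflammatory genes were also higher in vector 2, but for CXCL8, IL24 and BIRC3 vector 1 was the lowest of the 6 libraries. CXCL8, the chemokine that draws neutrophils, was at 7.31 FPKM in vector 1 and 17.3 in vector 2, and at 28.5, 19.6, 36.5 and 115 in the knockouts. Vector 1 was the lowest of the 6 and vector 2 the next. The fold was 2.37 (1.93 to 2.93). IL24, a cytokine of the IL-10 family, was at 6.07 and 13.4 FPKM, with 12.5 to 32.5 in the knockouts, and BIRC3, an inhibitor of apoptosis induced by NF-κB, at 4.31 and 10.1, with 6.04 to 18.6. Of 27 genes on the NF-κB and inflammation list, 20 lay higher in vector 2, with a median of 0.28, and vector 1 was the lowest of the 6 libraries at 14, against 17.6% of all genes compared. MAP3K14, the kinase that activates the non-canonical NF-κB pathway and a member singled out after its values were seen, was at 5.82 and 13.3, and TGFA, a ligand of EGFR, at 5.01 and 12.7.

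Cancer-testis genes, normally silent outside the germline, gave 3 of the 50. SPANXB1 was at 371 FPKM in vector 1 and 1215 in vector 2, with 382 to 897 in the knockouts, and was 3.28-fold higher (3.11 to 3.46). SSX1 was at 13.4 and 34.0 and MAGEC2 at 5.86 and 15.2. All 3 lie on the X chromosome, and SPANXB1 and SSX1 belong to families of near-identical copies there. Of 10 genes compared on the cancer-testis list, which also holds MAGED1 and MAGED2, 6 lay higher, with a median of 0.39. The cell cycle lists gave a single member, CCNE1, cyclin E1, at 5.65 and 11.7 FPKM, whose counts were under 2-fold apart (1.99, 1.58 to 2.51). However, 41 of 45 DNA replication genes lay higher in vector 2 by small amounts, with a median of 0.18, and 45 of 55 mitosis genes, with a median of 0.21. RRM2, a subunit of ribonucleotide reductase, was at 82.9 and 140. These lists also leaned the same way in DKO 2 over DKO 1, with medians of 0.10 and 0.10.

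**Figure D3:**
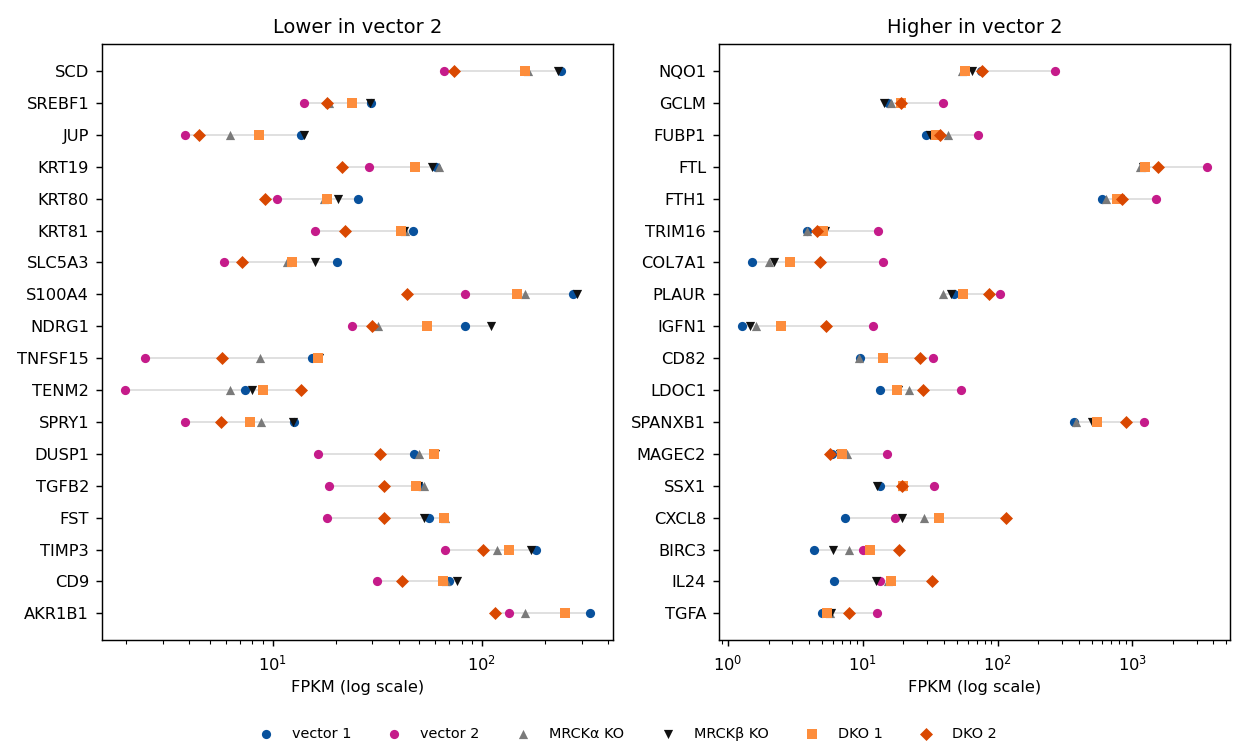
FPKM on a log scale in each of the 6 libraries for 18 genes lower (left) and 18 higher (right) in vector 2; the grey line joins the lowest and highest library. Vector 2 and DKO 2 are the low end for SCD, JUP and SPRY1, vector 2 alone is high for NQO1, GCLM, FTL and FTH1, and DKO 2 is the highest for CXCL8, BIRC3 and IL24.

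The remaining members were less far apart, and some are uncertain. Those named in this paragraph and by chromosome below were in part chosen after their values were seen. The 39 lower genes not named by the rule ranged from 2.02- to 2.55-fold and the 16 higher ones from 2.00- to 2.36-fold. For 63 genes, 41 lower and 22 higher, the whole counting interval lay past 2-fold, which describes the precision of values that the rule itself used. For 10 genes, among them CBWD3, VPS13B, CREB5 and FAM126A, the counts were under 2-fold apart. CBWD3 for example was given a transcript length of 3758 bases in vector 1 and 5596 in vector 2, and its count ratio was 0.612. COMMD3-BMI1, TMED7-TICAM2 and GCOM1 are readthrough genes that share exons with their neighbours, and CBWD3, FAM72C and ATAD3B have near copies. Just inside the lower limit, ITGB4 was 2.01-fold apart and GLTSCR1L 2.02-fold, and just outside DNASE2 and PCK2 were at 1.998- and 1.996-fold. Just inside the upper limit PDE4DIP was at 2.004-fold, and just outside RPGRIP1L was at 1.990-fold.

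The knockout libraries did not choose the members and show which vector library they lie nearer to at these genes. On the log2 scale MRCKβ KO lay nearer to vector 1 than to vector 2 at 78 of the 80 lower genes and 47 of the 50 higher ones. DKO 1 lay nearer to vector 1 at 70 and 40, and MRCKα KO at 58 and 41. DKO 2 lay nearer to vector 1 at 22 and 24 only. The same shares over all genes compared were not counted. Over genes compared in each pair, the standard deviation of the log2 ratio against vector 1 was 0.259, 0.191, 0.225 and 0.329 in the knockouts. Against vector 2 it was 0.320, 0.353, 0.311 and 0.278. Across genes too, DKO 2 alone was thus closer to vector 2 by this measure. The counts at members therefore do not by themselves set the members apart from other genes. At the 80 lower genes the lowest of the 6 libraries was vector 2 at 57 and DKO 2 at 21 (24.7% and 15.7% of all genes compared), and the highest was vector 1 at 37 and MRCKβ KO at 31 (15.2% and 14.3%). At the 50 higher genes vector 2 was the highest at 41 (20.9% of all). The ranks of the vector libraries follow in part from the rule and are given as a description.

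Under the same rule each pair of the 6 libraries was counted. Vector 1 and vector 2 differed 2-fold at 130 genes, and only the pair of vector 2 and MRCKβ KO differed at more, 135. Vector 1 and MRCKβ KO differed at 6, MRCKβ KO and DKO 1 at 7, MRCKα KO and DKO 1 at 9, and vector 1 and DKO 1 at 23. Vector 1 and DKO 2 differed at 122, but vector 2 and DKO 2 at 51. These counts share libraries and are given side by side. The empty-vector pair was thus farther apart than vector 1 was from MRCKα KO (38), MRCKβ KO or DKO 1, which differ from it in genotype as well as in transduction.

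The DKO pair shares no library with the vector pair. DKO 1 and DKO 2 differed 2-fold at 48 of 9760 genes, with 35 lower in DKO 2 (0.359%) and 13 higher (0.133%). Of the 80 genes lower in vector 2, 74 were lower in DKO 2 than in DKO 1, with a median log2 ratio of -0.65, where 47.0% of all genes compared were. Of the 50 higher genes, 40 were higher in DKO 2, with a median of 0.37, where 52.7% of all were. The 2-fold sets shared 11 lower genes, which is 13.8% of the vector set and 31.4% of the DKO set, and 6 higher genes, 12% and 46.2%. No gene was 2-fold apart in opposite directions, but the DKO sets hold only 0.359% and 0.133% of genes. Few or no such genes would be met in any case, so this is no measure of likeness. The shared lower genes included TNFSF15, SCD, S100A4, AKR1B1, KRT19, PLAT and MXRA8, and the shared higher ones were IGFN1, FAT3, PARM1, CXCL8, CYP1A1 and IL24. Over the 9527 genes with 100 counts in all 4 libraries, Pearson's r between the log2 ratios of the pairs was 0.44 and Spearman's rho 0.37, across genes, which are not independent replicates. The numbers 1 and 2 are labels, and nothing in the labels ties vector 2 to DKO 2.

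**Figure D4:**
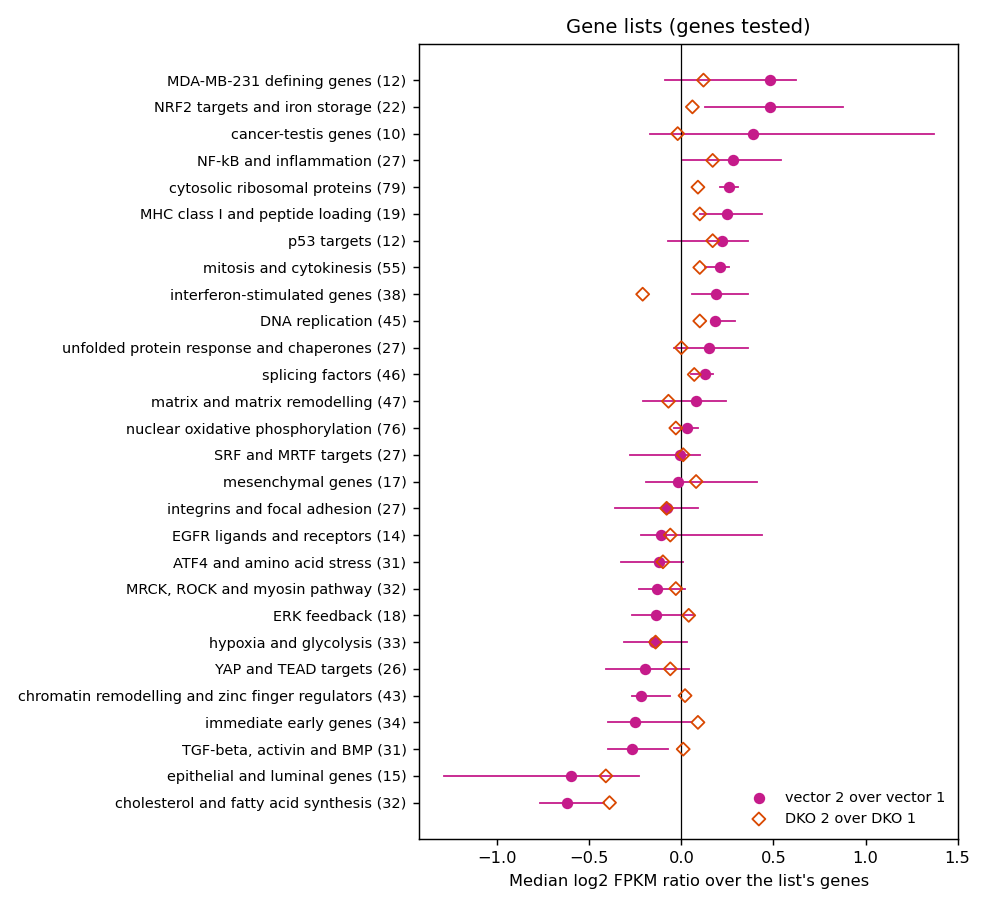
Median log2 FPKM ratio of vector 2 over vector 1 (filled circles, with a binomial 95% interval of the median over genes) and of DKO 2 over DKO 1 (open diamonds) for the 28 lists with at least 10 genes compared. Cholesterol and fatty acid synthesis, at -0.62 and -0.39, and epithelial genes, at -0.60 and -0.41, are low in both pairs, while NRF2 targets are at 0.48 and 0.06 and interferon-stimulated genes at 0.19 and -0.21.

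Lists without a single member also leaned. Interferon-stimulated genes were higher in vector 2 at 30 of 38, with a median of 0.19, and MHC class I and peptide loading genes, which present peptides to T cells, at 18 of 19, with a median of 0.25. In the DKO pair the interferon list went the other way, lower in DKO 2 at 30 of 41, with a median of -0.21. Cytosolic ribosomal proteins were higher in vector 2 at 69 of 79, with a median of 0.26, and chromatin regulators were lower at 31 of 43, with a median of -0.22. Short and long transcripts differed in the vector pair: the median log2 ratio went from 0.07 in the bin of shortest transcripts to -0.14 in that of the longest, over 10 bins of equal size, while in the DKO pair these medians were 0.02 and 0.00. Over 10 bins of GC content the vector pair's medians stayed between -0.03 and 0.02. The members themselves were richer in GC, with a median of 52.1% for the lower and 49.6% for the higher, against 47.3% for all genes compared. Whether GC content has a part in their ratios was not tested. How far transcript length has a part in the ribosomal and chromatin lists was looked at by centring on the length bins, which left medians of 0.19 and -0.09.

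The genes compared were placed in genome order by the RefSeq annotation of GRCh38.p14 and split into 192 blocks of about 50 neighbours. Most block medians lay near 0, 5% of them under -0.24 and 5% over 0.15, but some neighbouring blocks were shifted together. Runs of neighbouring blocks at or past a median of 0.2 in either direction were listed; this limit was set after the values were seen, and the runs are a description. The run on chromosome 19 held 156 genes from ZNF358 to JUND, of which 143 were lower in vector 2 (91.7%), with a median log2 ratio of -0.35 and quartiles of -0.55 and -0.19. The other 462 genes of that chromosome had a median of 0.11. Relative to the mean of the 6 libraries, the run's median was -0.35 in vector 2 and 0.01 in vector 1, -0.01, 0.06, 0.10 and 0.18 in the knockouts, so vector 2 alone was low. KEAP1 lies in the first block of this run, with a log2 ratio of -0.42, close to the block's median of -0.41. The members in the run are SLC44A2, DOCK6, SLC27A1 and C19orf66, all lower.

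The run on chromosome 8, from RBM12B to C8orf33 at its end, held 142 genes, 126 of them lower in vector 2, with a median of -0.35. Here the DKO pair moved as well, with 136 lower in DKO 2 and a median of -0.37. Vector 2 and DKO 2 were at -0.21 and -0.24 relative to the mean of the 6 libraries, and the other four between 0.08 and 0.15. The run held 6 of the 80 lower members, NDRG1, MATN2, VPS13B, TRAPPC9, MFSD3 and C8orf82, and no higher one. On chromosome 12, 128 of 153 genes from GALNT4 to CLIP1 were lower, with a median of -0.27, among them the members NUAK1 and SOCS2. On chromosome 15, 69 of 100 were lower, with a median of -0.23, but 62.7% of the other 201 genes of that chromosome were lower too. The genes outside the runs on chromosomes 8, 12 and 15 had medians of -0.02, -0.01 and -0.07. In the DKO pair, 111 of the 153 genes on chromosome 12 and 76 of the 100 on chromosome 15 were lower in DKO 2, with medians of -0.10 and -0.12. On chromosome 3, 91 of 100 genes from DHX30 to PDHB were higher in vector 2, with a median of 0.30, COL7A1, RASSF1 and SLC26A6 among them. There vector 1 and MRCKβ KO were both at -0.18, and vector 2 and DKO 2 at 0.13 and 0.16. The other 449 genes of chromosome 3 had a median log2 ratio of 0.10 in the vector pair. In all, the 14 blocks at or under -0.2 held 7.25% of the genes placed and 16 of the 80 lower members (20.0%), and none of the 50 higher. The same ratios picked both the blocks and the members, so these shares follow in part from the choice and are a description. After each log2 ratio was centred on its block, 63 of the 80 and 42 of the 50 were still 2-fold apart.

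**Figure D5:**
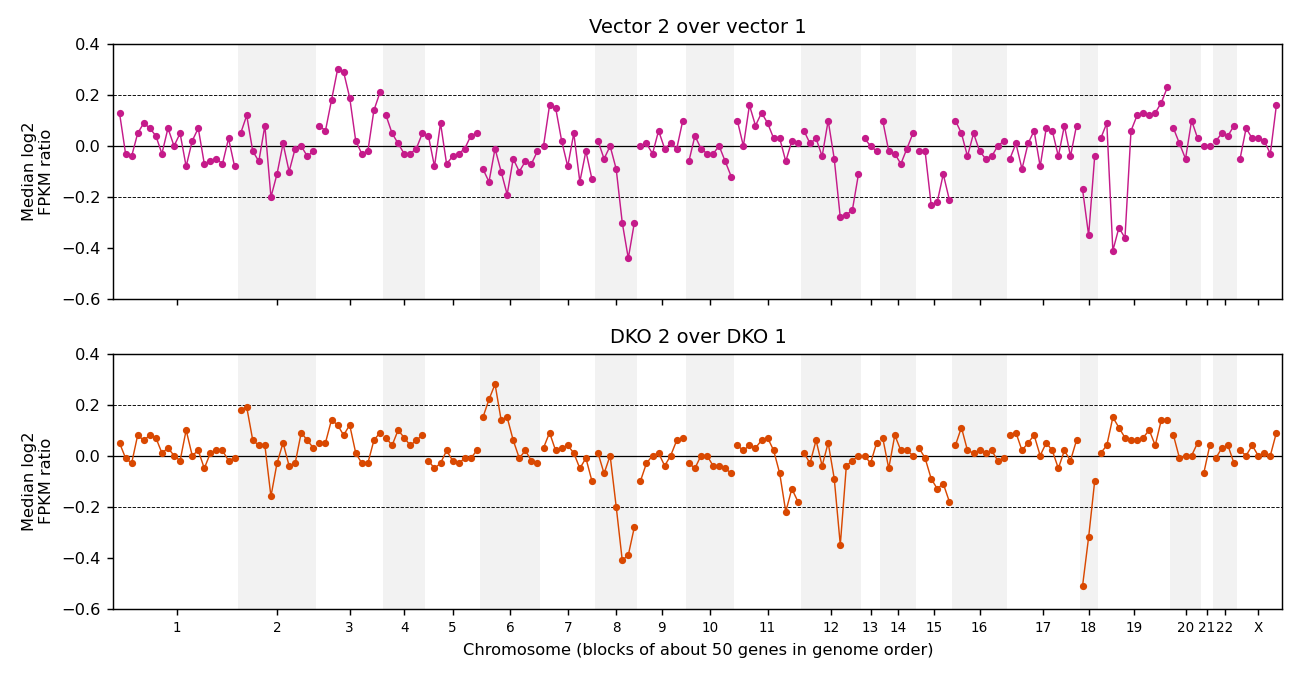
Median log2 FPKM ratio of 192 blocks of about 50 neighbouring genes, in genome order, for vector 2 over vector 1 (top) and DKO 2 over DKO 1 (bottom), with dashed lines at 0.2 in either direction. The top panel dips on chromosomes 8, 12, 18 and 19 and peaks on chromosome 3; the dips on 8 and 18 are also in the bottom panel and the dip on 19 is not.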

How the data were processed

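RNA was sequenced as 50-base single-end reads on BGISEQ-500. The submitters' processing notes name HISAT, Bowtie2, RSEM and GRCh38.p11, and roles and tool versions are not given in the sources used here. The deposited expected counts per gene are estimates that need not be whole. The deposited FPKM values are scaled to transcript length and library size, and the paper took its FPKM values from the analysis by the sequencing provider, BGI. The authors left out genes over 2-fold apart between the vector libraries and averaged the rest; here both were kept apart.

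Ratios of deposited FPKM were taken without a pseudocount among genes with at least 100 expected counts in both libraries. Exact intervals used counts rounded to whole numbers (scipy 1.17.1) and were tested on simulated data. Alternatives used edgeR 4.0.16 (TMM) and DESeq2 1.42.0 (size factors) for scaling only. Named genes were the 25 with the largest ratio and the 15 with the highest mean FPKM in each direction, list members, CDC42BPA and CDC42BPB. The members, gene lists and limits were chosen with earlier results of these data known. Gene positions and promoters came from RefSeq, GRCh38.p14. Some genes counted here are not reported by name.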

Additional observations from a re-analysis of the deposited data

How the results depend on the processing

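The numbers of genes lower and higher in vector 2, and 2-fold apart between DKO 1 and DKO 2, moved with the count minimum and the fold. With at least 10 counts in both libraries they were 340, 255 and 340, with 50 they were 134, 86 and 104, with 200 they were 45, 21 and 27, and with 500 they were 19, 9 and 6. With no minimum they were 944, 756 and 1431, and with 100 counts in either library 169, 112 and 136. At 1.5-fold they were 533, 299 and 357, and at 3-fold 12, 10 and 7. Where the whole exact interval had to pass 2-fold they were 42, 22 and 19. A pseudocount of 1 left 25 in the DKO pair. Plain library totals, TMM, DESeq2 size factors, recentring, a pseudocount of 0.1 and, chosen after seeing the data, centring on transcript length or on neighbouring genes kept all 3 counts within 1.5 times. The share of genes past 2-fold that lay nearer vector 1, 76.2%, 96.2% and 84.6% in the MRCKα KO, MRCKβ KO and DKO 1 libraries for the 130 genes, was 64.9%, 77.6% and 69.2% over the larger set with 10 counts, and 50.2%, 58.5% and 54.5% with no minimum. It was 100% in MRCKβ KO with 200 counts, and 85.7%, 100% and 96.4% with 500. The 33 medians of lists and runs and 79 single-gene log2 ratios were recomputed here. None of the 79 ratios changed sign, nor did any median whose interval over genes held a single sign. Changes of sign were not assessed for medians whose interval held both signs. Other genes given by value were not recomputed. Depth limits genes under 100 counts, where counting error alone widens a ratio. No paired analysis was possible because each side of the comparison is 1 library and no test was run. For the same reason no library could be left out.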
